A study of Mus musculus with 18 samples.

Results

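The comparison concerned tumors that received an inactive ribozyme carried by a manganese framework and tumors that received buffer. It was chosen by sample label: the M5@NKMOF-101-[Mn] tumors were set against the PBS tumors, which gave 6 of the 18 sequenced tumors, 3 in each group. All mice were female C57BL/6 animals that carried B16F10 cells, a pigmented mouse melanoma line, under the skin of the right flank. Injections into the tumor began on day 6, when tumors had reached about 50 mm3, and were repeated every 2 days with PBS or with M5@NKMOF-101-[Mn]. Tumor tissue was taken 48 h after the last injection, and poly(A) RNA of the whole tissue was sequenced. NKMOF-101-[Mn] is a metal-organic framework built on manganese that releases manganese ions in acid. M5 is a form of the Pistol ribozyme PS473, which was designed to cut the messenger RNA of PD-L1, the protein that tumor cells show to T cells through PD-1. M5 keeps the arms that pair with this RNA but carries changes in its catalytic center. PBS tumors lacked ribozyme and framework alike, so these groups differ by both. The NKMOF-101-[Mn] tumors (framework alone) and the PS473@NKMOF-101-[Mn] tumors (framework with the active ribozyme), 3 each, were used to set the difference from PBS beside that of the other framework groups. The titles of the last group read PS473@NKMOF-102-[Mn], whereas the treatment protocol names PS473@NKMOF-101-[Mn], which is used here.

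Manganese ions enhance the cGAS-STING pathway, in which the enzyme cGAS senses DNA in the cytosol and the membrane protein STING passes the signal to the kinase TBK1. RNA that enters the cytosol or the endosome can be sensed by RIG-I, MDA5 and Toll-like receptors. Both routes lead to type I interferon, whose receptor acts through JAK kinases and STAT transcription factors on interferon-stimulated genes, among them antiviral effectors, antigen presentation genes and PD-L1 itself.

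The sequences show what the inactive ribozyme retained. They are written 5′ to 3′ as printed in the study's supplement, and capitals mark the bases that differ between M5 and PS473:

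M5: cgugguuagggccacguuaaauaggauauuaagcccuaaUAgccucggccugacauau

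PS473: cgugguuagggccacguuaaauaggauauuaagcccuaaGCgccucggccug

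Counted from the 5′ end, M5 carries G40U and C41A relative to this printed form of PS473, and it is 58 nucleotides long against 52. Its 3′ arm is complementary to 16 nucleotides of the PD-L1 coding sequence, of which the shorter printed PS473 covers 10. The supplement also prints longer forms of PS473, and the labels do not say which form was injected. The stretch that M5 pairs with reads as follows, with the GU at which the active ribozyme cuts in capitals:

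PD-L1 target: auaugucaggccgaggGUuauc

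The G of this GU is coding position 473. In the mouse reference GRCm38 the stretch lies in exon 4 of 7 of Cd274, the gene for PD-L1, on the plus strand at chr19:29380366-29380387, inside the coding sequence.

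The tumors differed in how much other tissue they held. Each marker list was given a score per tumor, the average over its genes of log2(FPKM + 1), where FPKM is the fragment number scaled by gene length and by all fragments assigned to genes. The score of 27 skin epithelium and hair genes was 0.14 in PBS tumor 1, 4.92 in PBS tumor 2 and 3.81 in PBS tumor 3. It was 0.13, 0.15 and 2.84 in M5@NKMOF-101-[Mn] tumors 1, 2 and 3. Krt5, a keratin of basal epidermis, was at 0 FPKM in PBS tumor 1 and at 519 and 276 FPKM in PBS tumors 2 and 3. It was at 0, 0.0451 and 51.3 FPKM in the M5@NKMOF-101-[Mn] tumors. Skin RNA therefore lay mainly in PBS tumors 2 and 3 and, at a lower level, in M5@NKMOF-101-[Mn] tumor 3. In this respect PBS tumor 1 resembled M5@NKMOF-101-[Mn] tumors 1 and 2. The correlation of PBS tumor 1 across the 12357 tested genes was 0.96 to 0.98 with the M5@NKMOF-101-[Mn] tumors and 0.904 with PBS tumor 2; genes of a tumor are not independent replicates. The erythroid score, mostly globin genes, ran from 4.57 to 7.77 in PBS and from 3.97 to 6.74 in M5@NKMOF-101-[Mn] tumors. Its highest value was in PBS tumor 1. Since the RNA came from whole tissue, fewer cells of a type and less RNA per cell cannot be told apart here. The melanocyte lineage score was 6.45 to 6.70 in PBS and 6.65 to 6.90 in M5@NKMOF-101-[Mn] tumors, and all 19 of its genes passed the expression filter. Depth, as fragments assigned to genes, ran from 17212185 to 20113505 over these 6 tumors.

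**Figure D1:**
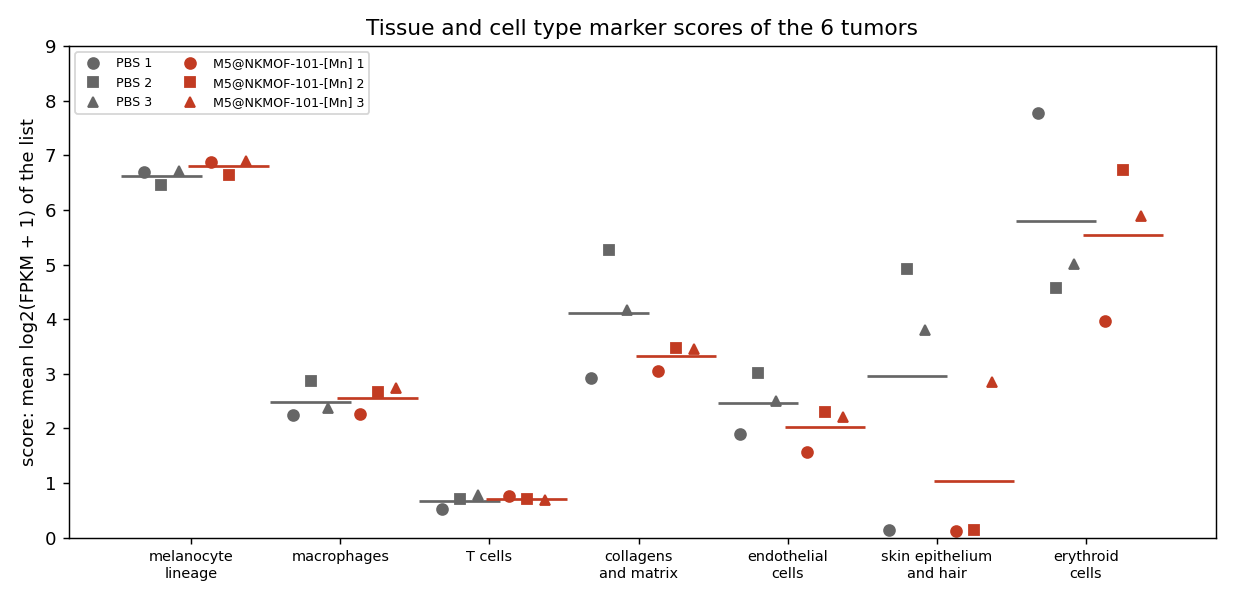
Marker list scores (mean log2(FPKM + 1) over the genes of a list, y axis) in the 3 PBS tumors (grey) and the 3 M5@NKMOF-101-[Mn] tumors (red), with a marker shape for each replicate number and a line at each group mean. The skin epithelium and hair score is 4.92 and 3.81 in PBS tumors 2 and 3, 2.84 in M5@NKMOF-101-[Mn] tumor 3 and at most 0.15 in the other 3 tumors.

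No gene passed the test between the groups. The test covered 12357 genes whose FPKM averaged 1 or more across the 18 tumors. Of these, 0 (0%) reached an adjusted p under 0.05 with a fold change above 2 in limma, and the smallest adjusted p was 0.999. In simulated data of this size the same fit recovered 88% of genes with a log2 change of 1.5. It recovered 92% of those with a log2 change of 2 and 97.5% of those with a log2 change of 3. Recovery of changes below 1.5 was not tested. Each simulated gene had its own spread within the groups of the real tumors, but genes were drawn independently from normal distributions. Whether these shares hold where genes vary together, as with tissue content, was not tested either. An unadjusted p under 0.05 was reached by 187 genes (1.51%), with 103 higher and 84 lower. Of these, 2 genes (0.0162%) were higher and 15 (0.121%) lower by a fold change above 2. The latter count was 260 without PBS tumor 1, 28 without M5@NKMOF-101-[Mn] tumor 2, 9 without PBS tumor 2 and 7 without M5@NKMOF-101-[Mn] tumor 1. The former was at most 8, without M5@NKMOF-101-[Mn] tumor 2. The median log2 fold change of all tested genes, the difference of the group means of log2(FPKM + 1), was -0.01; on this scale the change of genes with low FPKM is understated. The labels number the tumors of a group but do not tie them to animals, so p-values measure a spread between tumors. That spread was pooled over all 18 tumors, including groups outside this comparison. With the 2 groups alone, 479 genes reached an unadjusted p under 0.05 against 187, and the smallest adjusted p was 0.999 in limma. Genes whose 3 M5@NKMOF-101-[Mn] values all lay above the 3 PBS values numbered 587 (4.75%), and those whose values all lay below numbered 415 (3.36%).

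**Figure D2:**
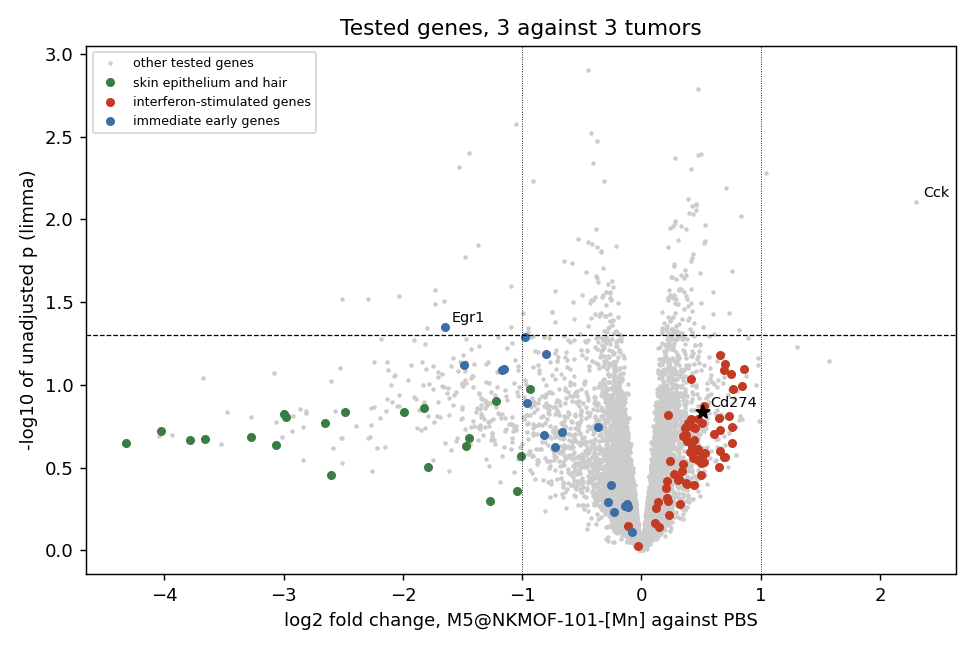
Points are the 12357 tested genes, with the log2 fold change of M5@NKMOF-101-[Mn] against PBS tumors on the x axis and -log10 of the unadjusted limma p on the y axis; the dashed line marks the threshold of 0.05 and the dotted lines a fold change of 2. Interferon-stimulated genes (red) lie mostly right of 0 at log2 fold changes below 1, skin genes (green) lie far to the left, and no gene passed the adjusted test.

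Among genes of at least 300 bases, 2 had a log2 fold change above 1. Cck encodes cholecystokinin, a peptide hormone of gut and brain. It was at 4.72, 1.51 and 1.37 FPKM in the PBS tumors and at 15.3, 7.64 and 28.1 FPKM in the M5@NKMOF-101-[Mn] tumors. All 3 treated values lay above the PBS values, with a log2 fold change of 2.30 (SE 0.75, unadjusted p = 0.0079, adjusted p = 0.999 in limma). Kcnj13, an inward rectifier potassium channel gene, was at 3.79, 1.73 and 8.81 FPKM in PBS and at 22.1, 4.09 and 27.7 FPKM in M5@NKMOF-101-[Mn] tumors, and the groups overlapped. The other gene higher by more than 2-fold at an unadjusted p under 0.05 was the microRNA gene Mir1249, which is named here after its value was seen and whose short length gives unsteady FPKM. Of the 10 lower genes named by the smallest p, most belong to the skin. Rptn, a cornified envelope protein gene, was at 0, 40.5 and 10.5 FPKM in PBS tumors 1 to 3 and at 0, 0 and 1.60 FPKM in the treated tumors. Sprr2i, Lce3a, Lce3b, Klk13 and Wfdc12, also expressed in epidermis, had their highest values in PBS tumors 2 and 3 too. The remaining members were Col7a1, whose collagen anchors epidermis to dermis, the carbonic anhydrase gene Car12, the endothelial transcription factor gene Sox7, and Egr1.

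Cd274 was not lower in tumors that received M5. Its level was 21.5, 15.7 and 12.3 FPKM in PBS tumors 1 to 3 and 21.8, 21.0 and 28.2 FPKM in M5@NKMOF-101-[Mn] tumors 1 to 3. The ranges overlapped, since PBS tumor 1 lay above the treated tumor 2. The log2 fold change was 0.52 with a 95% interval from -0.20 to 1.24 (SE 0.34, unadjusted p = 0.147, adjusted p = 0.999 in limma), so that a decrease larger than 0.20 on the log2 scale lies outside the interval. Leaving out any tumor gave values between 0.34 (without PBS tumor 3) and 0.71 (without PBS tumor 1). These are steady-state RNA levels of the whole gene and carry no information on cutting at the GU. The paper states that M5 lowered PD-L1 in part, both in cells and in tumors. It measured PD-L1 in tumors by qPCR, Western blot and tissue staining, so the measure differs from that here.

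The genes of DNA sensing were divided in direction. Of 14 tested cGAS-STING genes 8 were higher and 6 lower, with a median log2 fold change of 0.01. The median was -0.07 without PBS tumor 1 and 0.10 without PBS tumor 3, so the list had no steady direction. Of its genes 4 lay wholly above PBS and 0 wholly below, against 4.75% and 3.36% of all tested genes. Sting1, which encodes STING, was at 8.20, 8.42 and 8.93 FPKM in PBS and at 11.5, 10.5 and 12.0 FPKM in M5@NKMOF-101-[Mn] tumors. The groups did not overlap, and the log2 fold change was 0.37 (SE 0.13, unadjusted p = 0.0115, adjusted p = 0.999 in limma). Ifi204, an interferon-inducible DNA sensor gene, also lay apart, at 2.29, 3.66 and 3.38 FPKM in PBS and at 5.12, 6.04 and 4.78 FPKM in treated tumors. So did Ikbke, the gene of a kinase related to TBK1, by a smaller margin. Cgas and Tbk1 overlapped between the groups, with log2 fold changes of -0.14 and -0.06.

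Most genes of RNA sensing were higher. Of 20 tested genes for RNA sensors and their adaptors 19 were higher, with a median log2 fold change of 0.33, 9 lay wholly above PBS against 4.75% of all tested genes, and 1 lay wholly below against 3.36%. Rigi, the gene of RIG-I, was at 4.29, 4.27 and 4.14 FPKM in the PBS tumors and at 7.74, 6.07 and 6.55 FPKM in the treated tumors. Dhx58, which encodes the RIG-I-like helicase LGP2, was at 6.18, 4.81 and 4.29 FPKM in PBS and at 8.90, 8.61 and 8.79 FPKM with M5@NKMOF-101-[Mn]. Both genes separated the groups, with log2 fold changes of 0.57 (SE 0.29) and 0.69 (SE 0.37). Ifih1, the gene of MDA5, was at 3.24 to 3.44 FPKM in PBS and at 4.51 to 4.59 FPKM in treated tumors. Tlr3, the endosomal receptor of double-stranded RNA, was at 2.49, 2.43 and 2.95 FPKM and at 3.65, 3.46 and 3.89 FPKM in the same order. The unadjusted p of these 4 genes ran from 0.057 to 0.208 in limma, and their adjusted p was 0.999.

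Interferon-stimulated genes lay almost wholly on the higher side. Of 71 listed genes 65 were tested, 63 of them were higher, and 40 lay wholly above the PBS values while 0 lay wholly below; over all tested genes these shares were 4.75% and 3.36%. The median log2 fold change was 0.43, against -0.01 for all tested genes. No member passed the adjusted test or an unadjusted p under 0.05. These counts, like those of the other lists, are a description, because genes of a tumor are not independent replicates. The lists were also chosen with earlier results of these data known. The score of the list was 3.18, 2.85 and 2.90 in PBS tumors 1 to 3 and 3.37, 3.41 and 3.37 in M5@NKMOF-101-[Mn] tumors 1 to 3. PBS tumor 1, the PBS tumor with the least skin RNA, came closest to the treated tumors. Tumor 3 of the treated group, which held the most skin RNA in that group, also had a score of 3.37. With the skin score as a covariate the median was 0.52, and leaving out any tumor gave medians of 0.36 to 0.57.

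Several members separated the groups. Irgm1 and Irgm2 encode immunity-related GTPases that act on intracellular microbes. Irgm1 was at 40.3, 29.7 and 30.2 FPKM in PBS and at 49.8, 61.1 and 53.1 FPKM in treated tumors. Irgm2 was at 19.8, 13.1 and 15.4 FPKM and at 26.8, 31.3 and 31.2 FPKM in the same order. Neither overlapped between the groups, with log2 fold changes of 0.70 (SE 0.37) and 0.86 (SE 0.46). Ifit1, a binder of foreign RNA caps, lay apart too, at 5.17 to 7.58 FPKM in PBS and at 8.94 to 9.66 FPKM in treated tumors; its family members are similar in sequence, so their fragments may be shared.

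Genes of this list that the study followed by qPCR in a cultured macrophage line showed smaller differences in these whole tumors. The study reported their rise in that line with PS473@NKMOF-101-[Mn], so treatment, cells and measure differ from those here. Isg15, a ubiquitin-like protein gene, was at 44.9, 19.7 and 20.3 FPKM in PBS tumors 1 to 3 and at 35.4, 31.7 and 32.2 FPKM in treated tumors, so that PBS tumor 1 held the highest value. Isg20, an exonuclease gene, was at 3.76, 1.60 and 0.905 FPKM in PBS and at 1.29, 2.46 and 1.82 FPKM with M5@NKMOF-101-[Mn]. Isg20 and Epsti1 were the 2 tested members on the lower side, with log2 fold changes of -0.03 and -0.12; Epsti1 is named because of its value. Cxcl10, a chemokine that attracts T cells through CXCR3, was at 145.5, 140.1 and 140.2 FPKM in PBS and at 158, 189 and 149 FPKM in treated tumors. Its groups did not overlap, yet the log2 fold change was only 0.21 (SE 0.29, unadjusted p = 0.482 in limma). Without M5@NKMOF-101-[Mn] tumor 2 it was 0.11.

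**Figure D3:**
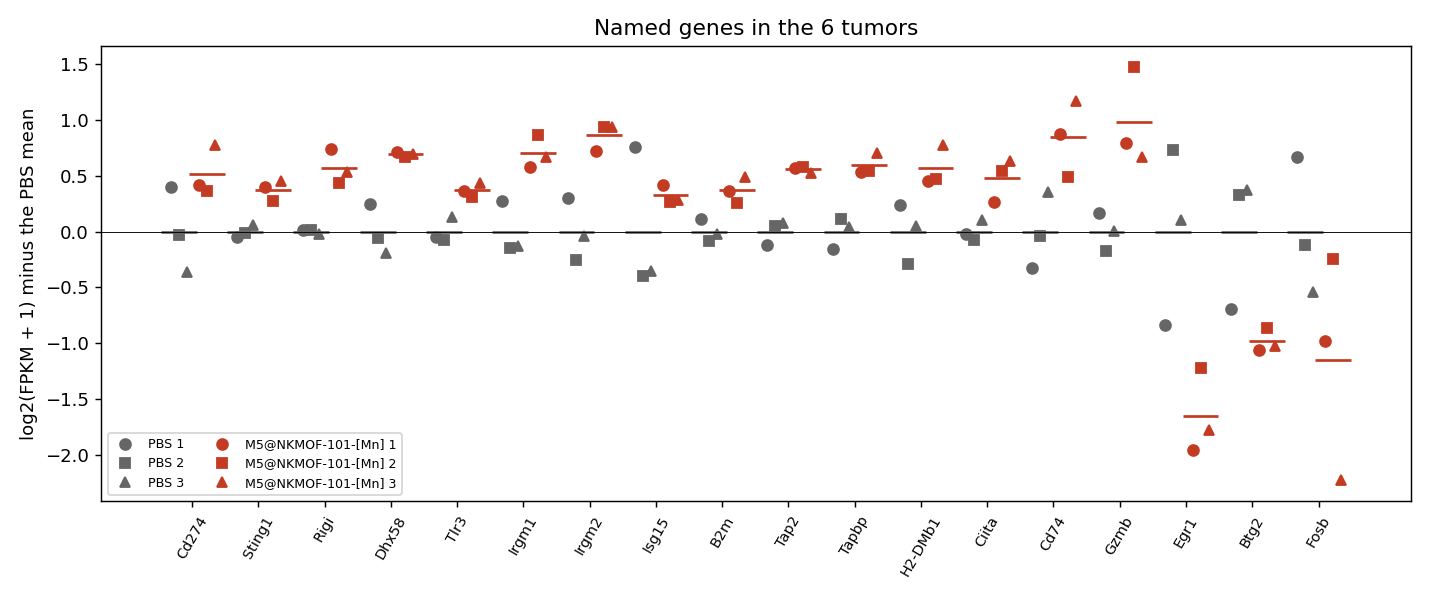
For 18 named genes the y axis gives log2(FPKM + 1) minus the mean of the PBS tumors, with PBS tumors in grey and M5@NKMOF-101-[Mn] tumors in red, a marker shape for each replicate number and a line at each group mean. The treated values of Irgm2 average 0.86 above PBS and lie above all PBS tumors, those of Isg15 lie below PBS tumor 1, and those of Egr1 lie below all PBS tumors.

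Promoter sequence is given for members of this list because the elements that interferon-activated factors read are known. The letters GAAANNGAAA, 2 GAAA blocks that are typical of interferon-stimulated response elements, were searched on both strands from 250 bases before to 50 bases after the RefSeq start of each gene (GRCm38.p6), and overlapping matches were allowed. A match was present in 26 of the 49 tested interferon-stimulated genes with a promoter in the table (53.1%), in 337 of 9214 tested genes (3.66%) and in 1079 of all 27025 genes (3.99%). It was present in 5 of 17 tested MHC class I genes and in 0 of 15 tested immediate early genes. The following 60-base stretches lie upstream of the start, with matches in capitals:

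Irgm1, minus strand of chr11:48871421-48871480: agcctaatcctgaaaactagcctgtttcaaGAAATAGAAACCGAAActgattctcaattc

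Irgm2, plus strand of chr11:58214888-58214947: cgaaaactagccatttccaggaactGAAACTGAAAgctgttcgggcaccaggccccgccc

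Isg15, minus strand of chr4:156200862-156200921: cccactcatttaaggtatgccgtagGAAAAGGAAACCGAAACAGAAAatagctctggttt

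Cxcl10, minus strand of chr5:92349068-92349127: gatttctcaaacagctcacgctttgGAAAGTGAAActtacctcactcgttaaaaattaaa

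Irgm1 holds 2 overlapping matches that begin 30 bases before the start, Irgm2 holds 1 that begins 64 bases before it, and Isg15 holds 3 that overlap. The members shown include genes with separated groups (Irgm1, Irgm2, Cxcl10) and 1 with overlapping groups (Isg15). A match describes letters and is not evidence that a factor was bound.

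Interferon genes themselves were near the limit of detection. Ifnb1, the gene of interferon beta, was at 0.0601, 0 and 0.0613 FPKM in PBS and at 0.21, 0.0598 and 0.0608 FPKM in M5@NKMOF-101-[Mn] tumors. Ifna4 was listed at 0 in all 6 tumors. Ifng, the gene of interferon gamma, was at 0.0825, 0.191 and 0.316 FPKM and at 0.216, 0.863 and 0.271 FPKM in the same order. None of them passed the filter. Of the 17 tested genes for interferons, their receptors and JAK-STAT signaling 15 were higher, with a median log2 fold change of 0.14, and 5 lay wholly above PBS against 4.75% of all tested genes. Stat3 was at 27.6 to 38.0 FPKM in PBS and at 38.0 to 47.9 FPKM in treated tumors, with a log2 fold change of 0.42 (SE 0.23).

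Genes of antigen presentation lay on the higher side in both classes. In class I, which presents peptides of the cell's own proteins, 19 of 20 tested genes were higher, the median log2 fold change was 0.37 and 8 lay wholly above PBS against 4.75% of all tested genes. Tapbp, the gene of tapasin, which loads peptides, was at 26.8, 32.5 and 30.8 FPKM in PBS tumors and at 43.8, 44.1 and 49.5 FPKM in treated tumors. Tap2, a subunit of the peptide transporter, was at 19.7, 22.4 and 22.8 FPKM and at 32.5, 32.6 and 31.4 FPKM in the same order. B2m, the light chain of class I molecules, was at 1687, 1465 and 1529 FPKM and at 1999, 1861 and 2184 FPKM. All 3 genes separated the groups, with log2 fold changes of 0.59 (SE 0.33), 0.56 (SE 0.33) and 0.37 (SE 0.22). The heavy chain gene H2-D1 also did, at 371 to 421 FPKM in PBS and 441 to 527 FPKM in treated tumors, whereas H2-K1 overlapped at 51.6 to 75.3 FPKM and 69.3 to 77.4 FPKM. Class I heavy chain genes are similar in sequence, so single values are uncertain. The tested member on the lower side was H2-T24, named after its value was seen, with a log2 fold change of -0.07.

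In class II, which presents peptides taken up from outside, all 9 tested genes were higher, the median log2 fold change was 0.57 and 7 lay wholly above PBS against 4.75% of all tested genes. Cd74, the invariant chain, was at 121.9, 149 and 196 FPKM in the PBS tumors and at 281, 215 and 344 FPKM in the M5@NKMOF-101-[Mn] tumors. H2-Aa and H2-Ab1, the chains of the I-A molecule, were at 56.5 to 77.6 and 41.8 to 65.9 FPKM in PBS and at 85.8 to 128 and 68.3 to 98.3 FPKM in treated tumors. Ciita, the master regulator of class II genes, was at 1.18, 1.11 and 1.38 FPKM and at 1.66, 2.23 and 2.44 FPKM. The peptide editor genes H2-DMa and H2-DMb1 lay apart as well. The largest of these log2 fold changes was that of Cd74, 0.84 (SE 0.57, unadjusted p = 0.16 in limma). With the skin score as a covariate the median of the list was 0.88, and leaving out any tumor gave 0.46 to 0.62. Class II genes are made by macrophages, dendritic cells and B cells, and by melanoma cells under interferon gamma, which whole tissue RNA cannot separate.

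The medians of these immune cell markers changed in size when skin was taken into account, and that of the dendritic cell genes changed sign. Of 15 tested macrophage genes 9 were higher, with a median log2 fold change of 0.14, and 1 lay wholly above PBS against 4.75% of all tested genes. The median of the macrophage genes was 0.05 without M5@NKMOF-101-[Mn] tumor 3 and 0.32 without PBS tumor 2, and with the skin score as a covariate it was 0.54 with all 15 higher. Cd68 was at 19.9, 24.6 and 17.7 FPKM in PBS and at 23.6, 47.0 and 33.9 FPKM in treated tumors, and Spp1, an osteopontin gene that melanoma cells also express, was at 20.8 to 35.5 FPKM and 27.8 to 71.6 FPKM. Adgre1, the gene of F4/80, was at 2.42 to 6.48 FPKM and 3.34 to 6.96 FPKM. All 3 overlapped. Trem2, a lipid receptor of tumor macrophages, was the member that did not, at 4.02 to 5.12 FPKM in PBS and 5.39 to 9.47 FPKM in treated tumors. Of 13 tested complement genes 11 were higher with a median of 0.36, which was 0.15 without M5@NKMOF-101-[Mn] tumor 2 and 0.50 with the covariate, where all 13 were higher. Among them C4b was at 40.7, 45.2 and 34.7 FPKM in PBS and 63.0, 62.2 and 70.5 FPKM in treated tumors. C2 was at 46.5 to 57.0 FPKM and 61.0 to 80.4 FPKM. C1qa, C1qb and C1qc, which macrophages make, overlapped between the groups. Few genes of the other myeloid and B cell lists were tested. The medians were 0.66 for 3 monocyte genes (0.87 with the covariate), -0.02 for 5 dendritic cell genes (0.09), -3.06 for 3 neutrophil genes (-0.57) and -0.15 for 2 B cell genes (-0.35).

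Lymphocyte RNA was scarce. Of 18 T cell genes 6 were tested, 2 of them higher, with a median of -0.05. This direction turned: the median was 0.35 with the skin covariate, where 5 of 6 were higher, and 0.10 without PBS tumor 2. Cd3g was at 0.952, 0.652 and 1.25 FPKM in PBS and at 1.39, 1.90 and 1.09 FPKM in treated tumors, and Cd3d and Cd3e stayed below 0.6 FPKM in all 6 tumors. Of 13 genes of natural killer and cytotoxic cells 2 were tested. Gzmb, the gene of granzyme B, was at 1.22, 0.763 and 0.994 FPKM in PBS and at 2.44, 4.52 and 2.15 FPKM with M5@NKMOF-101-[Mn]. Nkg7, a cytotoxic granule protein gene, was at 1.17 to 1.35 FPKM and 1.89 to 2.66 FPKM. Both separated the groups, with log2 fold changes of 0.98 (SE 0.50, unadjusted p = 0.0691) and 0.50 (SE 0.47, unadjusted p = 0.299 in limma), while the natural killer markers Ncr1 and Klrb1c did not exceed 0.21 FPKM in any of the 6 tumors. Of the inflammatory cytokine genes, Tnf was at 0.438 to 0.589 FPKM in PBS and 0.565 to 1.22 FPKM in treated tumors, and Il6 was at 0.0446 to 0.428 FPKM and 0.0692 to 0.178 FPKM. Neither was tested. Of 10 tested checkpoint genes 8 were higher with a median of 0.17, which was 0.10 without M5@NKMOF-101-[Mn] tumor 2, 0.29 without M5@NKMOF-101-[Mn] tumor 1 and 0.33 with the covariate, where all 10 were higher. Havcr2, the gene of TIM-3, lay apart at 1.39 to 1.65 FPKM and 1.67 to 2.74 FPKM, and Pdcd1, the gene of PD-1, at 0.225 to 0.382 FPKM and 0.586 to 0.759 FPKM, below the filter.

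Immediate early genes, which growth factors, stress and tissue handling induce within minutes, lay on the lower side. All 18 tested members were lower, with a median log2 fold change of -0.70, and 2 lay wholly below PBS against 3.36% of all tested genes. Egr1 was at 11.6, 36.3 and 23.2 FPKM in the PBS tumors and at 4.80, 8.63 and 5.58 FPKM in the M5@NKMOF-101-[Mn] tumors. Its log2 fold change was -1.65 (SE 0.75, unadjusted p = 0.0448, adjusted p = 0.999 in limma). Btg2, an antiproliferative gene, was the other separated member, at 1.83, 4.76 and 4.93 FPKM and at 1.21, 1.52 and 1.26 FPKM. Fos and Jun, the subunits of AP-1, overlapped between the groups at 90.5 to 140.3 and 68.7 to 92.9 FPKM in PBS and at 38.2 to 127 and 28.1 to 74.0 FPKM in treated tumors. Fosb was at 23.3, 13.0 and 9.48 FPKM and at 6.75, 11.9 and 2.26 FPKM. With the skin score as a covariate the list median was -0.27 and the log2 fold change of Egr1 was -0.83. Without M5@NKMOF-101-[Mn] tumor 3 the list median was -0.34. The time from removal to freezing of each tumor is not given in the sources used here, so tissue handling cannot be told apart from treatment.

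Lists of genes that respond to metal, oxidant or protein stress had medians near that of all genes. Of 20 tested genes of manganese, zinc and iron handling 11 were higher, with a median of 0.13 that was 0.01 to 0.08 when any tumor was left out, lowest without PBS tumor 3. The lowest member, Lcn2, an iron-siderophore carrier gene also made by epithelium and neutrophils, was at 0.381, 3.61 and 7.38 FPKM in PBS and at 0.0681, 0.262 and 0.740 FPKM in treated tumors (log2 fold change -1.50, unadjusted p = 0.0975 in limma), and the groups overlapped. Slc30a1, a zinc exporter gene that metal-sensing MTF1 induces, was at 2.10, 2.77 and 2.82 FPKM in PBS and at 3.72, 3.84 and 3.66 FPKM in treated tumors (log2 fold change 0.42, SE 0.16, unadjusted p = 0.0177 in limma). Steap3, a ferrireductase gene, was at 10.0, 10.8 and 13.3 FPKM and at 16.1, 14.7 and 14.1 FPKM (log2 fold change 0.38, SE 0.15, unadjusted p = 0.0217 in limma). Both separated the groups, and both had an adjusted p of 0.999. Slc39a14, a manganese importer gene, overlapped at 8.10 to 9.93 FPKM and 7.55 to 9.00 FPKM, and the manganese exporter gene Slc30a10 was listed at 0 in all 6 tumors. Of 20 redox and ferroptosis defence genes 13 were higher with a median of 0.07, which was -0.01 without PBS tumor 3. The lowest of them, the extracellular superoxide dismutase gene Sod3, was at 1.29, 6.87 and 5.93 FPKM in PBS and at 0.682, 1.28 and 1.58 FPKM in treated tumors, a log2 fold change of -1.22, and the groups overlapped. Of 20 genes of the unfolded protein and integrated stress response 15 were lower with a median of -0.07, among them Psat1 and Phgdh, enzymes of serine synthesis. Psat1 was at 34.9, 28.2 and 23.5 FPKM in PBS and at 22.4, 20.2 and 22.4 FPKM in treated tumors (log2 fold change -0.38, SE 0.15, unadjusted p = 0.022 in limma), and Phgdh was at 147 to 197 FPKM and 118 to 133 FPKM. Of 13 tested p53 targets 12 were lower with a median of -0.17, among them Cdkn1a at 51.2 to 87.1 FPKM and 47.3 to 56.7 FPKM. Of 12 tested pyroptosis and necroptosis genes 9 were higher with a median of 0.14, among them Zbp1, a sensor of Z-form nucleic acid, at 12.4, 6.87 and 7.78 FPKM in PBS and at 16.2, 15.0 and 15.4 FPKM in treated tumors. The 28 cell cycle and replication genes were divided, 13 higher and 15 lower, with a median of -0.01. The cyclin gene Ccne2 among them was at 3.41 to 4.42 FPKM in PBS and at 2.69 to 3.33 FPKM in treated tumors.

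The melanocyte genes were slightly higher and the stromal genes lower. Of 19 melanocyte lineage genes 16 were higher, with a median log2 fold change of 0.19, and 4 lay wholly above PBS and 1 wholly below, against 4.75% and 3.36% of all tested genes. The median was 0.09 without PBS tumor 2 and 0.32 without PBS tumor 1. With the skin score as a covariate it was 0.08, with 15 of 19 genes higher. Gpnmb, a lysosomal and melanosomal glycoprotein gene, was at 801, 761 and 795 FPKM in PBS and at 1016, 933 and 1181 FPKM in treated tumors (log2 fold change 0.40, SE 0.13, unadjusted p = 0.00909 in limma). Pmel, which forms melanosome fibrils, was at 1337, 1084 and 1360 FPKM and at 1749, 1455 and 1836 FPKM. Kit lay on the other side, at 1.28, 2.28 and 1.04 FPKM and at 0.788, 0.901 and 1.02 FPKM. Mitf and Sox10, the lineage's transcription factor genes, overlapped between the groups with log2 fold changes of -0.11 and 0.11.

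Among stromal genes, 21 of 23 collagen and matrix genes were lower with a median of -0.67, 9 of 9 fibroblast and pericyte genes with a median of -0.73, and 11 of 12 endothelial genes with a median of -0.50. Col1a1, the main chain of type I collagen, was at 25.7 FPKM in PBS tumor 1, 292 FPKM in PBS tumor 2 and 112 FPKM in PBS tumor 3, and at 31.3, 29.7 and 29.4 FPKM in treated tumors. The collagen and matrix score was 2.92, 5.26 and 4.16 in PBS tumors 1 to 3. It was 3.05, 3.48 and 3.45 in M5@NKMOF-101-[Mn] tumors 1 to 3. Whether skin accounts for the lower stromal genes was not tested. With the skin score as a covariate the medians of the collagen, fibroblast and endothelial lists were 0.04, -0.02 and -0.01. Without PBS tumor 2 they were -0.14, -0.33 and -0.17, and without PBS tumor 1 they were -1.24, -1.07 and -0.81. All 21 tested skin genes were lower, with a median of -2.48 that became -1.18 without PBS tumor 2 and -4.18 without PBS tumor 1. Tagln and Acta2, contractile genes of pericytes and smooth muscle, were the fibroblast and pericyte members that did not overlap. Tagln was at 5.56, 7.97 and 4.77 FPKM in PBS and at 2.58, 2.99 and 1.59 FPKM in treated tumors, and Acta2 at 10.5 to 12.9 FPKM and 3.37 to 9.06 FPKM. PBS tumor 1 lay above all treated tumors for both genes. Their log2 fold changes were -1.07 (SE 0.60) and -0.83 (SE 0.65), and -0.57 and -0.33 with the covariate.

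**Figure D4:**
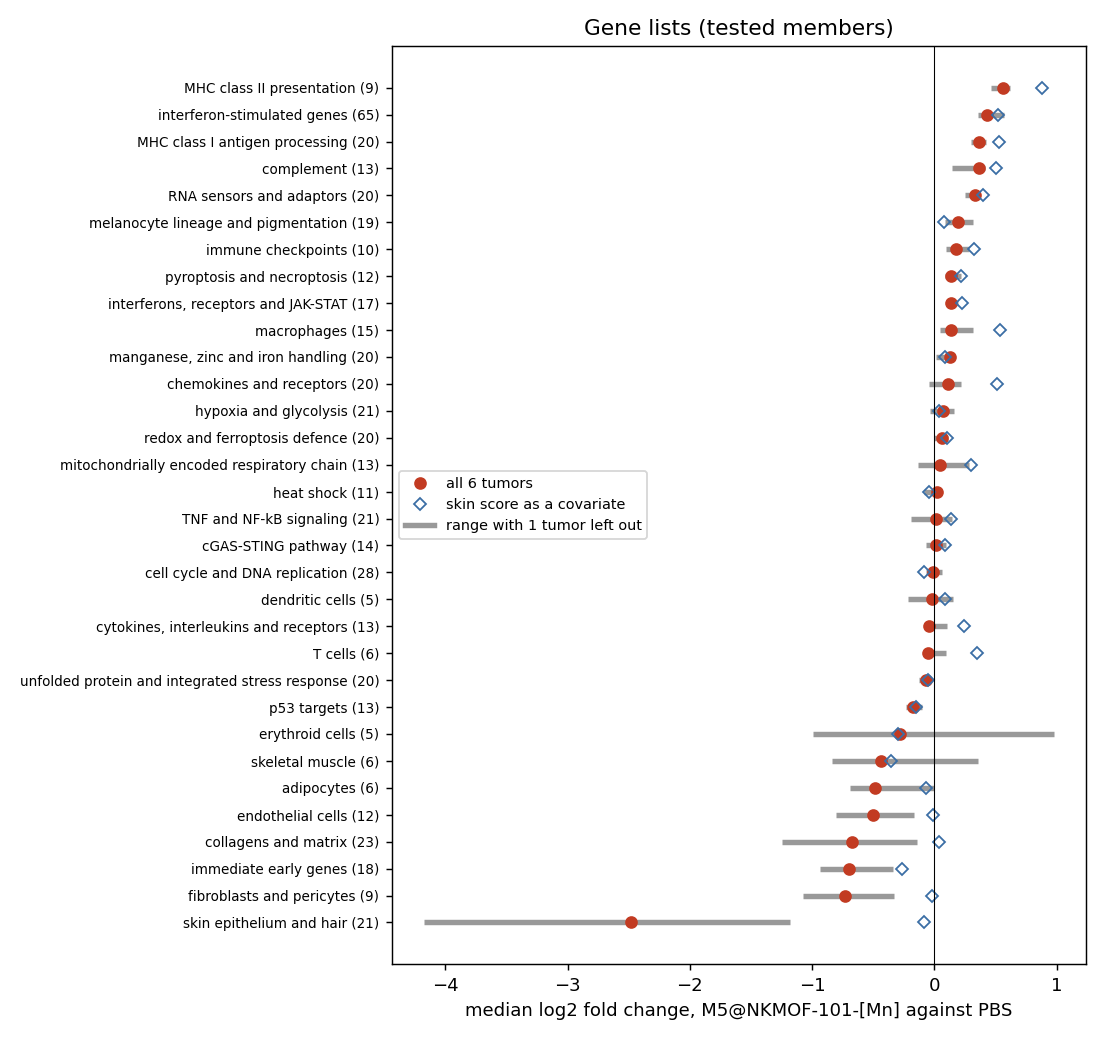
Median log2 fold change of M5@NKMOF-101-[Mn] against PBS tumors (x axis) for each list with at least 5 tested members, whose number stands in brackets; red points use all 6 tumors, grey bars span the values with 1 tumor left out, and blue diamonds use the skin score as a covariate. MHC class II, interferon-stimulated, MHC class I and RNA sensor lists lie between 0.33 and 0.57 with short bars. Skin, collagen, fibroblast and endothelial lists lie left of 0. With the covariate the collagen, fibroblast and endothelial lists move to near 0. The skin list does so by construction, because its own score is the covariate.

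The other framework groups were compared with M5@NKMOF-101-[Mn] in the same fit. Against tumors given the framework alone 0 genes differed (smallest adjusted p = 1.00 in limma), and 379 genes had an unadjusted p under 0.05. Against PS473@NKMOF-101-[Mn] tumors 0 genes differed as well, with 73 at an unadjusted p under 0.05. Differences from PBS share the PBS tumors and are given side by side only. The median log2 fold change from PBS of the interferon-stimulated genes was 0.11 in NKMOF-101-[Mn], 0.43 in M5@NKMOF-101-[Mn] and 0.56 in PS473@NKMOF-101-[Mn] tumors. In the contrast that leaves PBS out, 62 of the 65 genes were higher in M5@NKMOF-101-[Mn] than in NKMOF-101-[Mn] tumors with a median of 0.35, and 23 lay wholly above, against 4.47% of all tested genes. Against PS473@NKMOF-101-[Mn] tumors the median was -0.10, with 11 genes higher, and 0 lay wholly above or below (2.16% and 2.32% of all tested genes). The score of this list was 3.25, 2.80 and 3.28 in NKMOF-101-[Mn] tumors and 3.23, 4.33 and 2.88 in PS473@NKMOF-101-[Mn] tumors, so the mean of the active ribozyme rested on its tumor 2, while the 3 M5@NKMOF-101-[Mn] tumors lay between 3.37 and 3.41.

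For class I genes the median of the same contrast with NKMOF-101-[Mn] tumors was 0.18 with 5 of 20 wholly above, and for class II genes it was 0.38 with 3 of 9 wholly above, against 4.47% of all tested genes. Complement genes had a median from PBS of 0.48 in NKMOF-101-[Mn] and 0.36 in M5@NKMOF-101-[Mn] tumors. In the direct contrast the median of these 13 genes was -0.29, with 4 higher. For 20 chemokine and receptor genes it was -0.42, with 3 higher. Markers of other tissue moved in this contrast too. The median was -1.07 for 23 collagen and matrix genes, of which 12 lay wholly below (10.5% of all tested genes), -0.89 for 9 fibroblast and pericyte genes and -0.89 for 12 endothelial genes, with 0 higher in either list. It was -0.82 for 21 skin genes and -0.26 for 15 macrophage genes. Their part in the difference of the interferon-stimulated genes was not tested. Cd274 was at 14.1 to 15.9 FPKM in NKMOF-101-[Mn] tumors, below all M5@NKMOF-101-[Mn] tumors, and at 9.74 to 32.9 FPKM in PS473@NKMOF-101-[Mn] tumors. The direct difference in Cd274 was 0.63 from the empty framework (unadjusted p = 0.0832) and 0.39 from the active ribozyme (unadjusted p = 0.269, both in limma). Immediate early genes had medians from PBS of -0.36, -0.70 and -0.95 in the same 3 groups. Their median in the contrast of M5@NKMOF-101-[Mn] with NKMOF-101-[Mn] tumors was -0.13, with 1 of 18 wholly below against 10.5% of all tested genes.

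**Figure D5:**
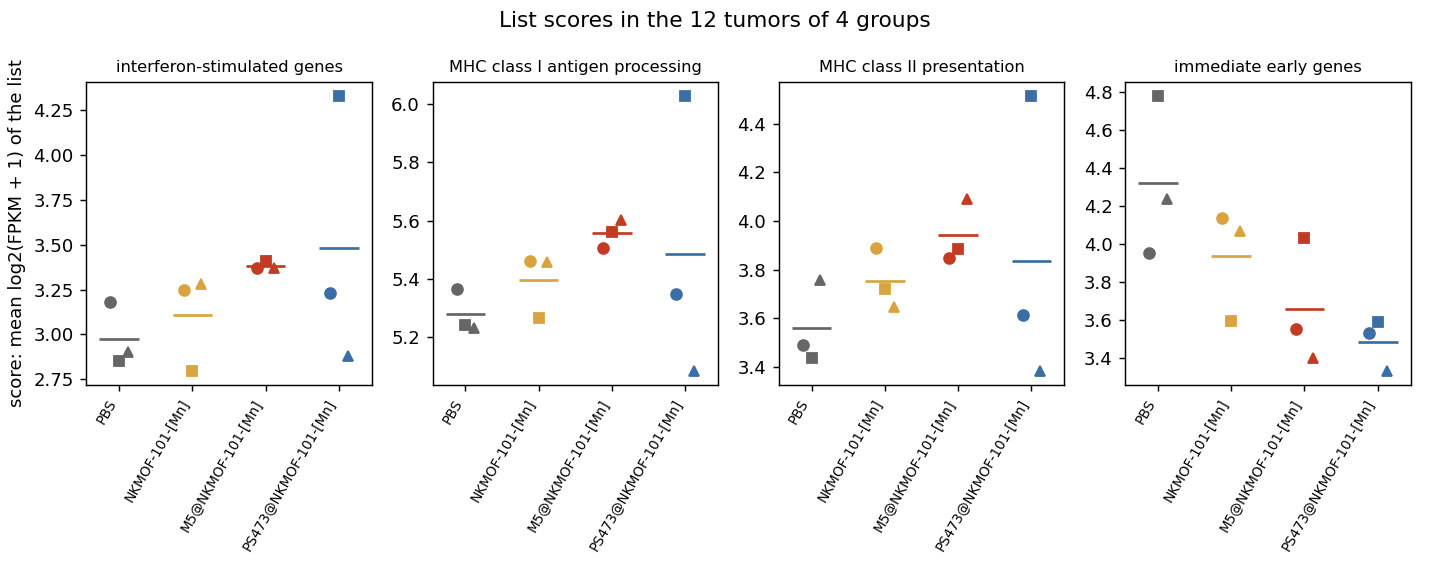
List scores (mean log2(FPKM + 1), y axes that do not start at 0) of the 3 tumors of each of 4 groups, with a line at each group mean. The interferon-stimulated score of the 3 M5@NKMOF-101-[Mn] tumors lies between 3.37 and 3.41, while that of the PS473@NKMOF-101-[Mn] tumors spans 2.88 to 4.33.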

How the data were processed

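Gene values were deposited as FPKM, which the authors made from their reads by counting fragments per gene and scaling for gene length and depth, with 1 column per tumor and no pooling. The submitters' processing notes name GRCm39; the aligner and counter are not given in the sources used here. Fragments assigned to genes, worked out from the FPKM steps, ran from 17212185 to 28401309 over the 18 tumors; in this recovery 47.1 to 51.5% of low values were whole within 0.01 fragments and 98.2 to 99.0% were whole or a regular fraction of a fragment, so whole reads were not recovered and counts were used only in an alternative. Group membership was read from the sample titles, except that titles with PS473@NKMOF-102-[Mn] were taken as the PS473@NKMOF-101-[Mn] group of the treatment protocol.

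Values were taken as log2(FPKM + 1), and genes with an average below 1 FPKM were dropped. limma 3.58.1 (R 4.3.3) was fitted to all 18 tumors with 1 mean per group and an intensity trend, with Benjamini-Hochberg adjustment over all tested genes. Genes were called when the adjusted p was below 0.05 and the fold change exceeded 2. All p-values are two-sided. The fit was tested on simulated data. Tables were handled in Python 3.11.15.

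Named genes were Cd274, the 10 genes per direction with the smallest p among those past a fold change of 2 and of at least 300 bases, up to 4 members per list with the largest moderated statistic, the first 3 genes of each list, and Cxcl10, Isg15, Isg20, Ifnb1, Il6, Tnf and Ifng. Genes said to be named after their values were seen fall outside this rule. The comparison and the gene lists were chosen with earlier results of these data known. Alternatives covered the pseudocount, filter, scaling, samples fitted, weights, replicate block, a skin covariate, recovered fragments and leaving out each tumor. Ribozyme sequences came from the study's supplement, and genome and promoter sequence from GRCm38, whose coordinates were not mixed with the deposited values. Some members of the lists are not reported here.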

Additional observations from a re-analysis of the deposited data

How the results depend on the processing

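No gene passed the adjusted test with a fold change above 2 under any of the 18 alternatives. Without a filter, 3 of 31286 genes (Gm12790, Gm23598 and Gm30953) reached an adjusted p under 0.05, none past a fold change of 2. The counts of genes past a fold change of 2 with unadjusted p below 0.05 moved more. The 2 higher genes became 7 with quantile normalization, 6 with either kind of array weights and 14 with the skin score as a covariate, and ranged from 2 to 8 when 1 tumor was left out. The 15 lower genes became 24 with the 2 groups alone, 306 and 309 with array weights by REML and gene by gene, 9 with the skin covariate and 9 with voom on recovered fragments, and ranged from 7 to 260 when 1 tumor was left out. PBS tumor 1 had array weights of 0.25 by REML and 0.28 gene by gene. The smallest adjusted p with these weights was 0.29 and 0.37 in limma. The replicate block gave 2 higher and 19 lower genes; same-numbered tumors deviated with correlations of 0.43, -0.22 and 0.28, so the numbers were not taken to pair the tumors. The causes of these shifts were not tested.

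Of 81 named genes, 8 changed direction somewhere. Isg20 was 0.0172 with a pseudocount of 0.1, 0.19 with quantile normalization, 0.25 and 0.20 with array weights by REML and gene by gene and 0.0345 with voom, and ranged from -0.32 to 0.34 with 1 tumor left out. Sox10 was -0.00630 with REML weights (-0.00917 to 0.24 with 1 tumor left out), and Adgre1 -0.0197 with gene by gene weights (-0.0417 to 0.52). With the skin covariate Krt5 was 0.0116, Epsti1 0.12 (-0.23 to 0.0895 with 1 tumor left out) and H2-T24 0.0150. Krt5 is part of the skin score, so its value with this covariate is not independent of it. H2-T24 was 0.000907 with quantile normalization (-0.17 to 0.00695 with 1 tumor left out). Tbk1 ranged from -0.15 to 0.0203 and Mitf from -0.24 to 0.13 with 1 tumor left out. These are log2 fold changes, and the causes were not tested. Of 38 list medians, 22 kept their sign under all alternatives and 16 did not. The 16 were those of cGAS-STING, chemokine, cytokine, TNF and NF-kB, redox, heat shock, hypoxia, cell cycle, collagen and mitochondrially encoded genes and of macrophages, dendritic, T, B, erythroid and skeletal muscle cells. FPKM carries no counts, so low genes such as Ifnb1 could not be given counting intervals.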

Other observations

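A list of 40 genes for lysosomal proteins was written after the values were seen, so its counts are a description only. Of these, 35 were higher in M5@NKMOF-101-[Mn] than in PBS tumors, with a median log2 fold change of 0.19, and 9 lay wholly above PBS while 0 lay wholly below, against 4.75% and 3.36% of all tested genes. The median was 0.13 without M5@NKMOF-101-[Mn] tumor 3. The score of the list was 5.23 to 5.35 in PBS and 5.41 to 5.58 in M5@NKMOF-101-[Mn] tumors. Psap, which encodes the precursor of the saposins that help to break down sphingolipids, was at 175, 207 and 202 FPKM in PBS and at 258, 269 and 272 FPKM in treated tumors. The log2 fold change of Psap was 0.46 (unadjusted p = 0.00807, adjusted p = 0.999 in limma). Ctsz, a cathepsin gene, was at 261, 237 and 252 FPKM in PBS and at 327, 275 and 309 FPKM in treated tumors, again without overlap. Against NKMOF-101-[Mn] tumors the median of the list was 0.09, with 30 of 40 genes higher and 2 wholly above.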
